A study of Mus musculus with 8 samples.

Results

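CD8α+ dendritic cells sorted from the spleens of RAG2 knockout mice were compared with the same subset from wild type mice. The comparison rests on 4 of the 8 arrays of the series, 2 of each genotype, and on all annotated probe sets that reached a log2 expression value of 5 on at least 2 of these 4 arrays. This left 14082 of 34945 probe sets with a single gene name, for 8494 genes. The wild type group is C57BL/6, and the knockout group carries RAG2-/- on C57BL/6. Both groups are labelled as untreated female animals of 10 weeks, and the allele of the knockout is not given in the labels. The other 4 arrays hold CD8α- dendritic cells of the same genotypes, 2 each. Total RNA was labelled with biotin and hybridised to Affymetrix mouse arrays, on which a gene is read by 1 or several probe sets. The labels do not say whether the replicates came from separate mice, and if they did not, the p-values measure technical spread only. Values below 5 were set to 5 before any difference was taken, and where a gene was below 5 on both arrays of a genotype, its fold is a lower bound computed from 5.

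CD8α+ conventional dendritic cells take up dying cells and present their antigens on MHC class I to CD8 T cells, a route known as cross-presentation. Their development needs the transcription factors Batf3, Irf8 and Id2. RAG2 is one of the recombinase proteins that assemble antigen receptor genes, so RAG2-deficient mice lack mature T and B lymphocytes from birth, and their dendritic cells develop in a spleen without these partners. In bulk RNA such as this, fewer cells of a type in the sort and less RNA per cell cannot be told apart.

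The sorted subset was recognisable by its markers. Cd8a, which encodes the α chain of the CD8 coreceptor used for the sort, stood at 11.73 and 11.94 in wild type and at 12.31 and 12.51 in knockout CD8α+ cells, against 5.80 to 7.70 on the CD8α- arrays. Cd4 was below 5 on all 4 CD8α+ arrays. Itgax, which encodes the integrin CD11c, lay between 12.45 and 13.12, and the cross-presenting cell marker Tlr3 between 12.35 and 13.00. Rag1 and Rag2 were below 5 on all 8 arrays, so the targeted gene did not check the genotype.

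Some arrays went against their labels or stood apart from their replicate. Xist, the RNA that coats the inactive X chromosome in female cells, was at 13.83, 13.56 and 13.34 on both wild type arrays and knockout replicate 1, but at 2.78 on knockout replicate 2. The Y-linked genes Eif2s3y and Kdm5d were at 10.10 and 8.93 on that array and below 5 on the other 3. Knockout CD8α- replicate 2 showed the same pattern, with Xist at 2.23 and Eif2s3y at 10.00, although every array is labelled female. Knockout CD8α+ replicate 1 carried neutrophil granule transcripts. Ngp, which encodes neutrophilic granule protein, was at 10.18 there, at 4.24 on knockout replicate 2 and below 2.4 in wild type, and S100a8 was at 9.81 against 5.19. Knockout replicate 2 in turn had more of the red cell anion exchanger Slc4a1, at 8.82 against 6.20 on replicate 1. The gap between 3′ and 5′ control probe sets for Gapdh, a measure of how far the labelled RNA reached, was 5.25 and 3.44 log2 units in wild type, and 1.94 and 2.68 in knockout cells. For Actb the gap was 1.55 and 1.42 against 0.66 and 0.73, so neither control overlapped between the genotypes. The processing differed too. All knockout arrays shared a lowest value of 2.23, held by 18217 to 18893 probe sets each, while each wild type array had a lowest value of its own near 1.17. Both differences run along the genotype and cannot be told apart from it in the results below.

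**Figure D1:**
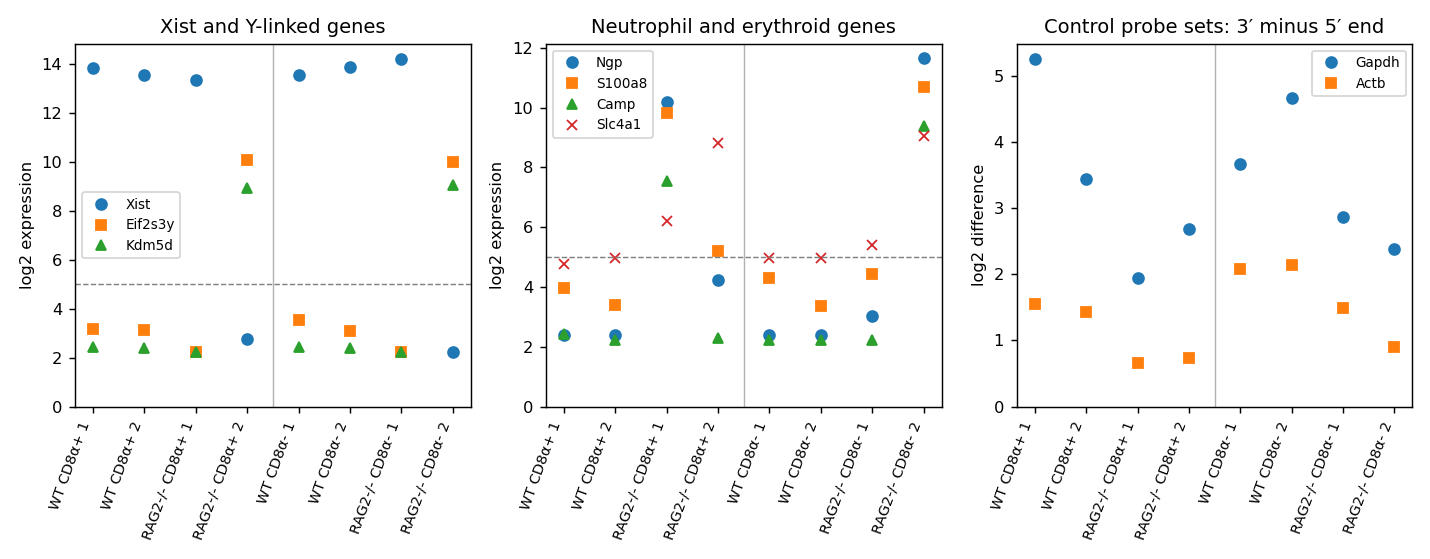
Checks of the 8 arrays. Left, log2 expression of Xist and of the Y-linked genes Eif2s3y and Kdm5d; middle, log2 expression of the neutrophil genes Ngp, S100a8 and Camp and of the red cell gene Slc4a1; right, log2 difference between the 3′ and 5′ control probe sets of Gapdh and Actb. Each point is 1 array, the dashed line is log2 5, and the vertical line divides CD8α+ from CD8α- arrays. Replicate 2 of each knockout group lacks Xist, and the Gapdh gap is 3.44 or more in wild type and 2.68 or less in knockout CD8α+ cells.

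With each gene read by its brightest probe set, 1770 of 8494 genes (20.8%) were higher in the knockout and 1263 (14.9%) were lower at an adjusted p under 0.05 (limma, Benjamini-Hochberg over all kept probe sets). Over probe sets the counts were 2632 higher (18.7%) and 2343 lower (16.6%). The median change over all genes was 0.10 on the log2 scale. Fewer genes were called when any of the 4 compared arrays was left out. The median change over all genes was then 0.08 and 0.12 without wild type replicate 1 and 2. It was 0.14 and 0.05 without knockout replicate 1 and 2. With fewer arrays a call can be lost though the change stays alike, so a lost call does not by itself show dependence on that array. In all, 679 higher and 500 lower genes stayed called with each of the 4 arrays left out in turn, and such genes are called stable from here on. Leaving out an array leaves its group with 1 sample, so the spread then comes from the remaining groups, CD8α- arrays included. For a group wholly below 5 it cannot move the value, so there stability says nothing about that group. Without both knockout arrays that lack Xist, 1019 genes were higher.

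Probe sets of a single gene often disagreed on the genotype. Of 2016 further probe sets of called genes, 59.8% changed in the same direction as the brightest, and 13.3% were themselves called in the opposite direction. The same figure was 93.9% of 784 probe sets when CD8α+ cells were compared with CD8α- cells in wild type, and 91.2% of 921 in the knockout. The ribosomal protein gene Rpl27 is an example, with a probe set that rose by 1.61 and another at -1.15, and 307 genes had probe sets called in both directions. At least 2 probe sets were called higher and none lower for 209 of the 3507 genes with several probe sets (5.96%), and at least 2 were called lower and none higher for 261 (7.44%). The direction of further probe sets is therefore given below for many of the genes that have them; Igkv8-30, Jchain, C1qa, Cd14, Irf7 and Jag1 are among those read by 1 kept probe set, for which no such check exists.

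**Figure D2:**
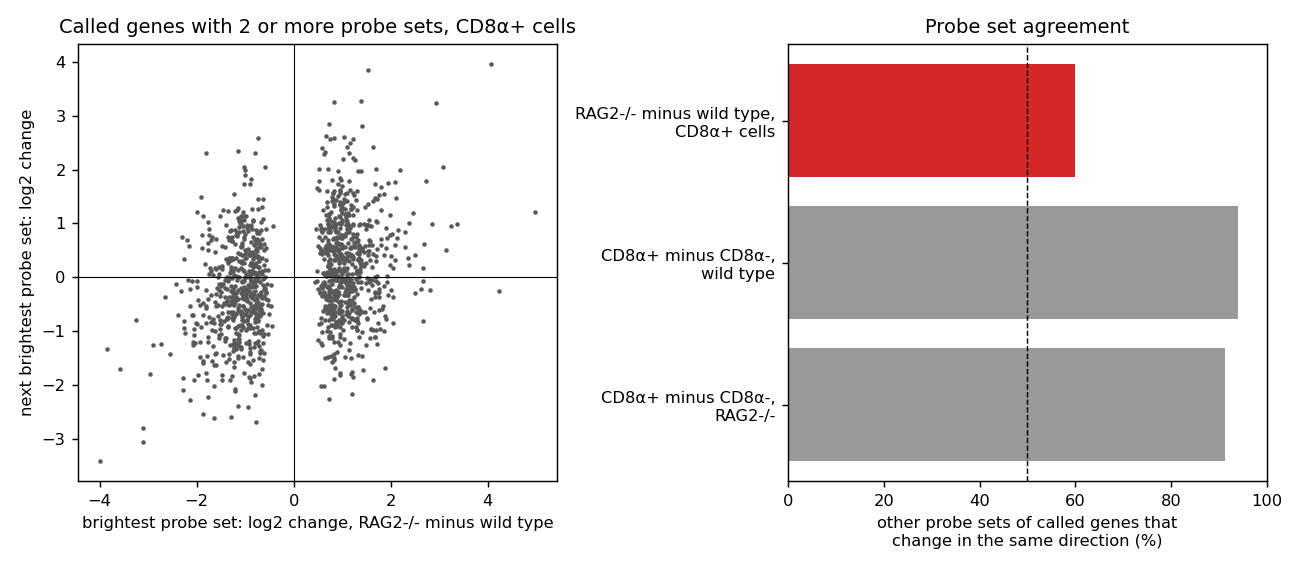
Agreement of probe sets that read the same gene. Left, log2 change (RAG2-/- minus wild type, CD8α+ cells) of the next brightest against the brightest probe set, 1 point per called gene with at least 2 probe sets; right, percentage of further probe sets of called genes that change in the same direction, for the genotype comparison and for the subset comparisons within each genotype, with a dashed line at 50%. The genotype comparison reaches 59.8%, the subset comparisons 93.9% and 91.2%.

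Transcripts of antibody and T cell receptor genes were among the largest falls. Igha, the constant region of immunoglobulin A, was at 8.86 and 9.12 in wild type and below 5 on both knockout arrays, at least 15.9-fold lower, and its 3 probe sets all fell. Such a gene passed the filter through the wild type arrays alone, and its floored knockout values have no spread, so its adjusted p of 0.00065 is too small; with the spread of the deposited values it was 0.0029. Igkv8-30, an immunoglobulin light chain variable gene, went from 10.31 and 9.72 to below 5, at least 32.3-fold lower. Jchain, which joins the units of secreted IgA and IgM, was at 10.19 and 9.32 in wild type and at 4.87 and 6.12 in the knockout, a change of -4.19 ± 0.45 (SE). The genotypes do not overlap for any of these genes, but this held for all 3033 called genes and adds nothing to the call. All 3 were stable. The T cell receptor segment Trav9d-3 was at 7.61 and 7.87 in wild type and below 5 in the knockout, at least 6.67-fold lower. Both of its probe sets fell. Trbv1, another such segment read by 1 probe set, went from 8.66 and 8.79 to below 5, at least 13.2-fold lower. Trbv1 was not stable, and it was at 7.26 on knockout CD8α- replicate 2.

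The wider lists of lymphocyte genes followed these leaders only in part. Their counts stand beside 20.8% higher and 14.9% lower over all genes. Of 21 immunoglobulin genes on the array, 14 were below 5 on all 4 CD8α+ arrays. Members such as Igkv8-30 passed the filter through the wild type arrays alone and could not be called higher. Of 6 tested immunoglobulin genes 4 were lower and none was higher, with a median change of -1.59. Without knockout replicate 1 or 2, or without wild type replicate 2, 3 were lower, and without wild type replicate 1 there were 2. Of 5 plasma cell genes 3 were lower and 1, Xbp1, was higher. Xbp1, a transcription factor that dendritic cells also use, rose by 1.15 ± 0.16 with 2 of its 3 probe sets called. Of 11 B cell genes 2 were lower and 1 was higher; 4 were lower without wild type replicate 2, 1 without replicate 1 of either genotype and none without knockout replicate 2. Bank1, a B cell adaptor, rose by 1.93 ± 0.29, from 6.67 and 5.87 to 8.31 and 8.09, and was stable. The 2 probe sets of Ms4a1, which encodes CD20, differed, with a change of -3.23 that was called and one of -0.40 that was not. Of 6 T cell genes 3 were lower and none higher, but only 1 when any of the 4 arrays was left out. The T cell receptor complex genes Cd3e and Cd3g were below 5 on all 4 arrays of both genotypes. Summed on the linear scale over all members on the array, tested or not, T cell genes were at 1798 and 2023 in wild type. In knockout cells they were at 933 and 1109. B cell genes were at 3907 and 2661 in wild type against 1624 and 1544. That sum holds the called Ms4a1 probe set, whose log2 values were 11.05 and 10.15 against 7.62 and 7.13. The plasma cell list went the other way, from 6802 and 6779 to 11502 and 13387, a sum that holds Xbp1. In the NK cell and cytotoxic list 2 of 6 genes were higher and 1 lower, none of them stable, and the NK receptor gene Ncr1 was below 5 on all 4 arrays.

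**Figure D3:**
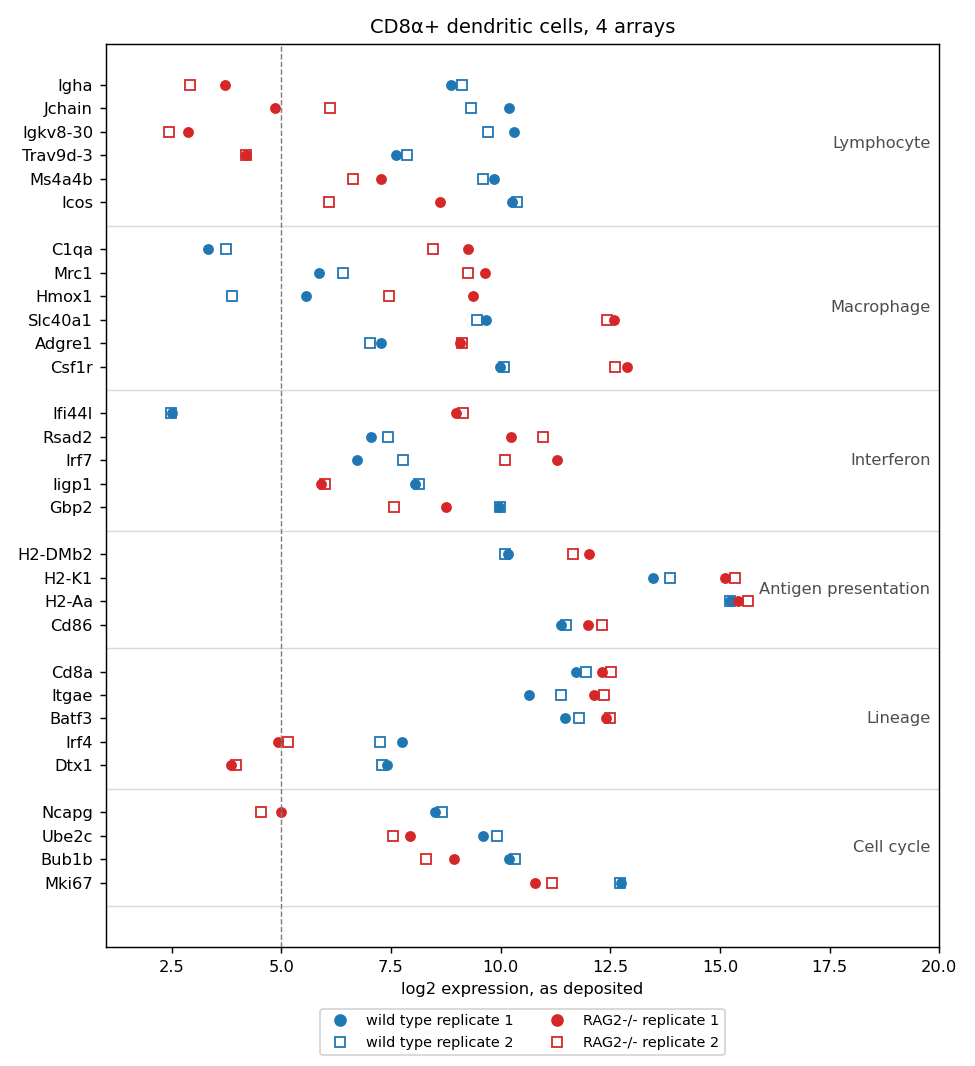
Log2 expression as deposited (x axis) of selected genes on the 4 CD8α+ arrays, grouped by role. Blue marks wild type and red RAG2-/-, with filled circles for replicate 1 and open squares for replicate 2, which overlie the circles where the values coincide; the dashed line is log2 5. The antibody gene Igkv8-30 lies near 10 in wild type and below 5 in the knockout. The macrophage gene C1qa lies below 5 in wild type and at 9.25 and 8.46 in the knockout. Others of these groups, such as Jchain and Slc40a1, differ without lying below 5 on both arrays of a genotype.

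Macrophage and monocyte genes were the list with the largest share of members called in a single direction among lists with at least 10 tested members. Of its 19 members on the array, 4 were below 5 on all 4 CD8α+ arrays and were not tested. Members below 5 on both wild type arrays, such as C1qa and Cd14, passed the filter through the knockout arrays alone and could not be called lower. Of 15 tested members 14 were higher in the knockout and none was lower, against 20.8% and 14.9% of all genes, with a median change of 1.85. The count was 11 without either wild type array, 13 without knockout replicate 1 and 14 without knockout replicate 2, and 10 members were stable. Slc40a1, the iron exporter ferroportin that splenic macrophages use to return iron from red cells, was at 9.67 and 9.47 in wild type and at 12.58 and 12.42 in the knockout, and its probe sets rose by 2.93 and 3.23. Csf1r, the receptor for the macrophage growth factor CSF-1, went from 9.98 and 10.07 to 12.88 and 12.61, and all 3 of its probe sets rose. Neither gene's genotypes overlapped, which holds for every called gene, and both genes were stable.

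The other members included several with no level above 5 in wild type. C1qa, a chain of the complement recognition protein C1q, was below 5 on both wild type arrays and at 9.25 and 8.46 in the knockout, at least 14.5-fold higher. The lipopolysaccharide coreceptor Cd14 was likewise below 5 in wild type and at 8.38 and 8.60 in the knockout, at least 11.3-fold higher. Mrc1, the mannose receptor, rose by 3.33 ± 0.42 to 9.65 and 9.26. Adgre1, which encodes the macrophage antigen F4/80, rose by 1.96 ± 0.17, from 7.28 and 7.01 to 9.07 and 9.13. Hmox1, the heme-degrading enzyme, was at 5.56 and 3.89 in wild type and at 9.38 and 7.47 in the knockout; it lost its call without wild type replicate 2 (adjusted p = 0.064). The haemoglobin scavenger receptor Cd163 was at least 3.38-fold higher. The exception was Vcam1, an adhesion molecule of red pulp macrophages, at 11.64 and 12.36 in wild type against 11.58 and 11.35, which did not pass. Summed on the linear scale over all members on the array, tested or not, the macrophage list was at 7784 and 10659 in wild type. In the knockout it was at 30346 and 24223. The sum was higher on knockout CD8α- arrays as well, at 62767 and 65397 against 12573 and 15214. All 5 tested complement genes were higher, with a median change of 1.60, 3 of them without any single array other than wild type replicate 1, where 2 were called. C1qb had 3 probe sets that all rose, by 1.72, 1.03 and 3.05. Over all genes 20.8% were higher. Of 13 complement genes on the array, 8 were below 5 on all 4 CD8α+ arrays, and C1qa passed the filter through the knockout arrays alone.

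In the list of C-type lectins and other phagocytic receptors 9 of 18 genes were higher and none was lower, against 20.8% and 14.9% of all genes, with a median change of 1.14; leaving out an array left 5 to 8, and 5 were stable. Clec4a2, an inhibitory lectin receptor typical of CD8α- dendritic cells, was below 5 in wild type and at 7.01 and 7.34 in the knockout. It passed the filter through the knockout arrays alone. Its relative Clec4a3 rose by 1.90 ± 0.30, and the integrin chain Itgav, part of a receptor for dying cells, by 1.50 ± 0.19. Cd36, a scavenger receptor of CD8α+ cells, was at 11.73 and 11.60 against 11.34 and 11.75 and was not called. Of 3 tested neutrophil genes 1, Anxa1, was higher. Genes bright on knockout replicate 1 alone, such as Ngp, Chil3, Camp and Ltf at 10.18, 9.01, 7.54 and 6.75, did not reach 5 on a second array and so were not tested. S100a8 and S100a9, at 9.81 and 9.27 on knockout replicate 1 and at 5.19 and 4.18 on replicate 2, were not called, and 8 of the 17 neutrophil genes on the array were below 5 on all 4 CD8α+ arrays. The neutrophil list summed to 7381 and 8025 in wild type and to 15072 and 10311 in the knockout. Of 4 erythroid genes 1 was higher, and of 2 platelet genes 1, Clec1b, a receptor also found on myeloid cells, at least 8.45-fold. The part of other cell types in the macrophage result was not tested.

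Genes known for their induction by type I interferon tended upwards, while those best known for induction by interferon-gamma went both ways. Of 20 tested type I interferon genes 5 were higher and none was lower, with 18 changes above 0, against 55.2% of all genes, and a median of 0.54. The share called, 5 of 20, is near the 20.8% of all genes. Leaving out an array left 4 or 5, and 4 members were stable. Of 13 interferon-gamma genes 5 were lower and 2 higher, against 14.9% and 20.8% of all genes, with a median of -0.55. Leaving out an array left 2 to 4 lower and 1 or 2 higher.

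Promoter sequence is shown for genes of both kinds because transcription factors that act downstream of interferons bind repeats of GAAA. The motif GAAANNGAAA was searched on both strands from 250 bases before to 50 after each start in the RefSeq promoter table (build GRCm38.p6). It was found in 3.44% of 32851 promoters, in 3.82% of 6983 tested genes, in 7 of 13 tested type I interferon genes with an entry, and in 7 of 9 interferon-gamma genes. Among called genes it was found in 4.20% of the higher and 3.34% of the lower. A match describes letters in a window and not a bound site. The stretches below are 90 bases, 5′ to 3′ on the strand of the gene, with the match in capitals, which in Rsad2, Gbp2 and Gbp7 lies on the opposite strand.
Rsad2, chr12:26456523-26456612, minus strand: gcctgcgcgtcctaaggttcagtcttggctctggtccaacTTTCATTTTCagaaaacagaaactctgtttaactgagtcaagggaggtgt
Slfn5, chr11:82951907-82951996, plus strand: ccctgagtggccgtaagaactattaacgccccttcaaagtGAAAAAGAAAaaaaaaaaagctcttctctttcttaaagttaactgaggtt
Gbp2, chr3:142620564-142620653, plus strand: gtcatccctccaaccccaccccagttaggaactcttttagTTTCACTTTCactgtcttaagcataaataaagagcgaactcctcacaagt
Gbp7, chr3:142530243-142530332, plus strand: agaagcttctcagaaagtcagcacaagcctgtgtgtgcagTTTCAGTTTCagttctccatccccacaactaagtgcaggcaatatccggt
Irgm2, chr11:58214873-58214962, plus strand: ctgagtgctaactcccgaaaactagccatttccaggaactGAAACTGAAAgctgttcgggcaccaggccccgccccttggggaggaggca
The match begins or ends between 44 and 155 bases before the start of each gene. Rsad2 and Slfn5 were higher in the knockout and the other 3 genes were lower, so both directions occur among promoters with the motif. In Ifi44l, Irf7 and Cmpk2, which were also higher, the motif was not in the stretch before the start.

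Ifi44l, an interferon-induced gene, had 2 probe sets that both rose. It was at 2.51 and 2.49 in wild type and at 8.99 and 9.15 in the knockout, at least 16.8-fold higher (adjusted p = 0.0012). The other probe set rose by 3.96. Being below 5 on both wild type arrays, Ifi44l passed the filter through the knockout arrays alone and could not be called lower. Its floored wild type values have no spread. Rsad2, which encodes the antiviral enzyme viperin, went from 7.05 and 7.43 to 10.24 and 10.96, a change of 3.36 ± 0.28; its other probe set also lay above 0 but was not called (adjusted p = 0.051). Irf7, the factor that amplifies interferon production, was at 6.72 and 7.77 in wild type and at 11.28 and 10.10 in the knockout. Slfn5, an interferon-inducible Schlafen gene, rose by 2.38 ± 0.26, with a second probe set at 1.01 that was not called. Cmpk2, a mitochondrial nucleotide kinase that neighbours Rsad2, rose by 1.80 ± 0.27. These 5 genes were stable. Ifit2, Ifit3 and Bst2, also interferon-induced antiviral genes, had changes of 1.20, 1.11 and 1.22 that did not pass, and the antiviral GTPase Mx1 was at 0.11. Ifi44l and Slfn5 are not on the list.

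The falls on the interferon-gamma side were among GTPases that guard against intracellular microbes. Iigp1 was at 8.06 and 8.15 in wild type and at 5.91 and 6.01 in the knockout, a change of -2.15 ± 0.16, while its second probe set was at -0.22 and was not called. Gbp3 fell by 1.11 ± 0.16, from 8.40 and 8.37 to 7.37 and 7.17. Both calls were stable. Gbp2, Gbp7 and Irgm2 had changes of -1.81, -1.28 and -0.64. Gbp2 lost its call without either wild type array or knockout replicate 2 (adjusted p from 0.066 to 0.097), Gbp7 without replicate 1 of either genotype (0.080 and 0.078), and Irgm2 without any array but knockout replicate 2 (0.068 to 0.10), and the second probe set of Gbp7 was at 0.36. Going the other way, Ciita, the master regulator of MHC class II genes, rose by 1.08 ± 0.15, although its other probe sets were at -0.22 and -0.53 and were not called. Irgm1 rose by 0.87 ± 0.24 and lost its call when any of the 4 arrays was left out (adjusted p from 0.093 to 0.14).

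Genes of antigen presentation were called higher more than lower. For MHC class II, 10 of 19 tested genes were higher and 1 was lower, with a median change of 0.78. For MHC class I 8 of 18 were higher and 1 was lower, with a median of 0.49. Over all genes 20.8% were higher and 14.9% lower. Single arrays mattered: the class II count was 5, 8, 6 and 5, and the class I count 2, 8, 4 and 4, without wild type replicate 1, wild type replicate 2, knockout replicate 1 and knockout replicate 2. The 2 of 18 class I genes without wild type replicate 1 compare with 868 of 8494 over all genes in that fit. H2-DMb2, a chain of the H2-DM chaperone that loads peptides onto class II, went from 10.17 and 10.10 to 12.02 and 11.66. Its 3 probe sets rose by 1.70, 2.01 and 1.24. Rfx5, a factor that binds class II promoters, rose by 1.96 ± 0.22, from 9.99 and 9.38 to 11.64 on both arrays. The class II chains themselves moved less. H2-Eb1 rose by 0.82 ± 0.18, a call lost without wild type replicate 1 or knockout replicate 2 (adjusted p = 0.077 and 0.069), and H2-Aa was at 15.23 on both wild type arrays against 15.41 and 15.64 and was not called. Cd1d1, which presents lipids, was the class II list's single fall, from 14.18 and 14.21 to 12.80 and 12.92, though its other probe set was at -0.36 and was not called.

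On the class I side H2-K1, a classical heavy chain, was at 13.48 and 13.87 in wild type and at 15.12 and 15.34 in the knockout, and all 4 of its probe sets rose, by 0.84 to 1.56. Class I heavy chain genes resemble each other closely, so their probe sets may share signal. The proteasome activator Psme1, the immunoproteasome subunit Psmb8 and the peptide transporter Tap1 rose by 1.63, 1.14 and 1.11, and each lost its call without either knockout array, Psmb8 and Tap1 also without wild type replicate 1 (adjusted p from 0.059 to 0.11). The light chain B2m was at 14.68 and 14.59 against 14.43 and 14.55, and its probe sets were not called. Tapbp, the tapasin that bridges transporter and heavy chain, fell by 0.88 ± 0.20; without wild type replicate 2 or either knockout array it was not called (adjusted p from 0.064 to 0.076).

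Toll-like receptors and their adaptors were called in 9 of 18 cases, 7 higher and 2 lower, against 20.8% and 14.9% of all genes. Without either wild type array 5 were higher, without knockout replicate 1 there were 3 and without knockout replicate 2 there were 4. Unc93b1, which carries endosomal receptors to their compartment, rose by 1.63 ± 0.29, and the kinase Irak2 by 1.81 ± 0.19, from 5.20 and 5.21 to 6.77 and 7.26. Tlr1, which pairs with Tlr2 to sense bacterial lipopeptides, fell from 9.33 and 8.94 to 7.48 and 7.15. All 3 were stable. Tlr3, the receptor for double-stranded RNA that CD8α+ cells use, was not called.

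Markers that define the CD8α+ lineage were seldom called, although most of their changes lay above 0. Of 20 tested markers 2 were higher and 1 was lower, against 20.8% and 14.9% of all genes, with 17 changes above 0 and a median of 0.60, against 0.10 over all genes. Without wild type replicate 2, 6 were higher. Batf3 rose by 0.83 ± 0.17, and the integrin Itgae, which encodes CD103, by 1.22 ± 0.32 with a second probe set at 2.22. Batf3 lost its call without knockout replicate 2 (adjusted p = 0.053), and Itgae without either knockout array or wild type replicate 1 (0.088 to 0.14). The probe set that called Id2 lower, at 14.79 and 14.78 against 13.28 and 13.64, was opposed by changes of 0.36 and 0.55 that were not called. Irf8 had a change of -0.11 and was not called. The chemokine receptor gene Xcr1 was at 6.93 and 9.16 in wild type and at 10.53 and 9.56 in the knockout, and its replicates in wild type lay too far apart for a call. Of 12 markers shared by conventional dendritic cells 3 were higher and none lower, and of 8 plasmacytoid markers 1, Irf7, was higher.

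Markers of the CD8α- subset split, beside 20.8% of all genes higher and 14.9% lower. Of 14 tested, 6 were higher, among them Csf1r, Clec4a2 and Clec4a3 as above, and 3 were lower, with 4 and 3 of them stable. Irf4, the factor that directs CD8α- dendritic cells, was at 7.75 and 7.26 in wild type and at 4.94 and 5.14 in the knockout, a change of -2.43 ± 0.21. Dtx1, a target of Notch signalling that is far higher in CD8α- cells, went from 7.41 and 7.31 to below 5, at least 5.13-fold lower. S100a4, a calcium-binding protein, fell by 2.12 ± 0.23, from 10.75 and 10.33 to 8.32 and 8.53. None of the 3 genotype pairs overlapped, which holds for every called gene.

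Notch and lymphotoxin genes were called in 6 of 10 cases, 3 each way, against 20.8% and 14.9% of all genes. Only 1 was higher without either wild type array or knockout replicate 2, and 2 without knockout replicate 1. Jag1, a Notch ligand, was at 7.69 and 8.28 in wild type and below 5 in the knockout, at least 7.92-fold lower, and was stable. The receptor Notch2, which splenic CD8α- dendritic cells need, fell by 1.66 ± 0.30, from 13.00 and 12.79 to 10.93 and 11.52, and lost its call without wild type replicate 1 (adjusted p = 0.061). Notch1 went from 6.24 and 6.03 to 6.89 and 7.37 and lost its call without either wild type array or knockout replicate 2 (adjusted p from 0.059 to 0.080).

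Costimulation and maturation genes were seldom called higher. Of 17 costimulation and maturation genes 1 was higher and 2 were lower, against 20.8% and 14.9% of all genes. Of their changes 12 were below 0. Fscn1, the actin bundler fascin of mature dendritic cells, was at 14.90 and 15.06 in wild type and at 12.83 and 12.63 in the knockout, a change of -2.25 ± 0.17, with a second probe set at -1.02 that was not called. Cd80 and Cd40 had changes of -0.87 and -0.47 that did not pass. Nfkbie, an inhibitor of NF-kB that is itself an NF-kB target, had changes of -1.55 ± 0.14 and -1.07 in its probe sets, both called. It stood at 12.38 and 12.36 in wild type and at 10.87 and 10.79 in the knockout. The NF-kB list as a whole had 2 of 15 genes higher and 3 lower, near the shares of all genes. Egr2, an immediate early transcription factor that restrains lymphocyte and dendritic cell activation, went from 8.64 and 8.39 to 5.68 and 5.55, with a second probe set at -1.26 that missed the threshold. Icos, a costimulatory receptor best known from T cells, was at 10.26 and 10.38 in wild type and at 8.62 and 6.09 in the knockout. All 3 of its probe sets fell, with changes of -2.96, -1.79 and -1.34, and the first lost its call without knockout replicate 2 (adjusted p = 0.091) or wild type replicate 1 or 2 (0.14 each).

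**Figure D4:**
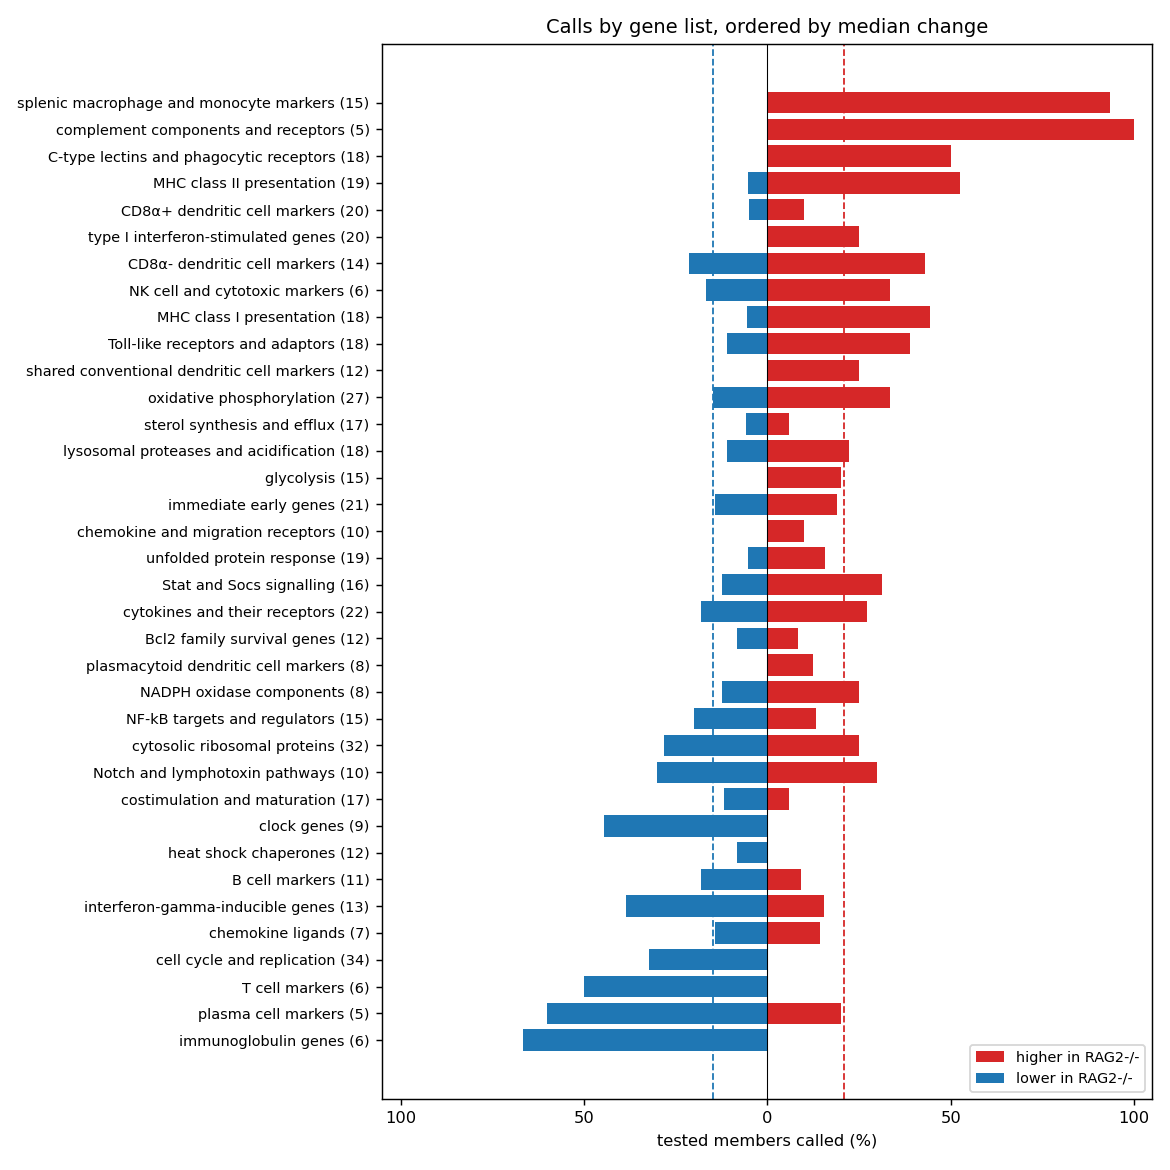
Percentage of tested members called higher (red, to the right) or lower (blue, to the left) in RAG2-/- CD8α+ cells for each gene list with at least 5 tested members, the number tested in brackets. Lists are ordered by their median log2 change, and dashed lines mark the share of all genes called, 20.8% higher and 14.9% lower. The macrophage list reaches 14 of 15 higher, and the cell cycle list has 11 of 34 lower and none higher.

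Of 34 tested cell cycle genes 11 were lower and none was higher, against 14.9% and 20.8% of all genes, with 31 changes below 0 and a median of -0.81. Leaving out single arrays left 5 without either wild type array or knockout replicate 1 and 4 without knockout replicate 2; 4 members were stable. Mki67, the proliferation antigen Ki-67, was at 12.75 and 12.72 in wild type and at 10.79 and 11.17 in the knockout. Bub1b, a spindle checkpoint kinase, went from 10.20 and 10.32 to 8.94 and 8.30, with changes of -1.64 and -2.01 in its probe sets. Mcm5, a helicase subunit of replication, fell by 1.76 ± 0.26, although its second probe set was at 0.51 and was not called. Cdk1, the mitotic kinase, had the largest change of the list, -2.19, with knockout arrays at 8.56 and 7.97. It did not pass in the fit, which pools the spread of all 4 groups. Ncapg, a condensin subunit outside the list, was at 8.50 and 8.66 in wild type and below 5 in the knockout, at least 12.0-fold lower, and both probe sets fell. Cip2a, an inhibitor of the phosphatase PP2A, and Shcbp1, a protein of dividing cells, had changes of -3.11 ± 0.20 and -2.97 ± 0.47, each from a single probe set. Cdc25a, a phosphatase that starts the cycle, went the other way, rising by 2.36 ± 0.29 with a second probe set at 0.36 that was not called.

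Further genes with large changes had no common theme that was tested. Insm1, a zinc finger transcription factor of neuroendocrine cells, was at 10.23 and 10.27 in wild type and at 6.39 and 6.44 in the knockout, and both probe sets fell, with changes of -3.84 and -1.33. Ackr4, a receptor that scavenges CCL19 and CCL21, went from 7.79 and 8.74 to 3.30 and 5.32, with changes of -3.11 and -2.79 in its probe sets. Mpzl2, an adhesion protein, was at 9.33 and 8.60 against 5.88 and 5.84, with changes of -3.10 and -3.06 in its probe sets. Among the rises, Dnpep, an aspartyl aminopeptidase, was at 8.94 and 8.56 in wild type and at 11.84 and 11.81 in the knockout, and 3 of its 4 probe sets were called higher. All of these were stable.

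Other leading rises rested on a single probe set. Pik3cd, the leukocyte PI3-kinase subunit p110δ, rose by 4.98 ± 0.51 in its brightest probe set, from 6.92 and 6.62 to 12.28 and 11.21, while the others were at 1.22 and 0.28 and were not called. Slpi, an inhibitor of leukocyte proteases, had 1 probe set, at 5.10 and 5.03 in wild type and at 10.51 and 9.53 in the knockout. Prkag1, a subunit of the energy sensor AMPK, rose by 2.49 ± 0.17 in one of its probe sets and was at 0.41, not called, in the other. Hyou1, a chaperone of the endoplasmic reticulum with a single probe set, rose by 2.82 ± 0.25, from 6.68 and 6.06 to 9.18 and 9.21. It was 1 of 3 unfolded protein response genes called higher of 19, against 1 lower. Over all genes 20.8% were higher and 14.9% lower.

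The remaining lists are given by their counts, against 20.8% higher and 14.9% lower over all genes. Of 32 cytosolic ribosomal protein genes 8 were higher and 9 lower, of 27 oxidative phosphorylation genes 9 were higher and 4 lower, of 22 cytokines and their receptors 6 and 4, and of 16 Stat and Socs genes 5 and 2, none of the latter stable. Without wild type replicate 1 the higher counts were 3 for oxidative phosphorylation, 2 for cytokines and receptors and 1 for Stat and Socs genes. Of 18 lysosomal genes 4 were higher and 2 lower, with 1 higher without replicate 1 of wild type or replicate 2 of the knockout, of 21 immediate early genes 4 and 3, of 17 sterol genes 1 and 1, of 12 Bcl2 family genes 1 and 1, of 8 NADPH oxidase components 2 and 1, and of 7 chemokine ligands 1 and 1. Glycolysis had 3 of 15 higher and none lower, and chemokine receptors 1 of 10 higher and none lower. Of 12 heat shock chaperones 1 was lower and none higher. Of 9 clock genes 4 were lower and none was higher, with a count of 2 or 3 when an array was left out. Bhlhe40, a transcriptional repressor tied to the clock, fell by 1.60 ± 0.21, from 8.36 and 8.53 to 6.74 and 6.96. The mast cell and the stromal list had 1 tested gene each, and neither was called.

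The same genotype difference was read in CD8α- cells to ask which changes differ between the subsets. The difference of the changes (CD8α+ less CD8α-) was called for 2 of 8494 genes (0.0235%), while 1039 of 14082 probe sets were at an unadjusted p under 0.05. Both called genes, Ryr3 and Tmem158, were bright in wild type CD8α- cells and near 5 in CD8α+ cells. Ryr3, a calcium release channel, was at 5.40 and 5.41 in wild type and below 5 in knockout CD8α+ cells, but had a change of -4.16 in CD8α- cells, from 12.60 and 12.81 to 8.45 and 8.63. Of all genes called in CD8α+ cells, 97.4% had a change of the same sign in CD8α- cells, and for 95.1% the difference of the changes was under 1. Both comparisons carry the same processing of each genotype and the same 3′ to 5′ gap of the controls.

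Other genes with large differences between the subsets did not pass. Dtx1 had changes of -2.36 and -0.31 in CD8α+ and CD8α- cells, and the difference of -2.05 ± 0.26 had an adjusted p of 0.15. For Irf4 the changes were -2.43 and -0.29 (difference -2.15 ± 0.29, adjusted p = 0.17). For Iigp1 they were -2.15 and -0.53 (adjusted p = 0.17), and for Tlr1 -1.82 and -0.26 (adjusted p = 0.35). Dscaml1, an adhesion molecule of the immunoglobulin superfamily, fell by 2.86 in CD8α+ cells and was below 5 on all CD8α- arrays (adjusted p = 0.075). The low-affinity IgG receptor gene Fcgr3 had changes of 0.67 and 3.87 (adjusted p = 0.064). With 2 arrays a group the median standard error of such a difference was 0.32, against 0.23 for the change in CD8α+ cells.

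**Figure D5:**
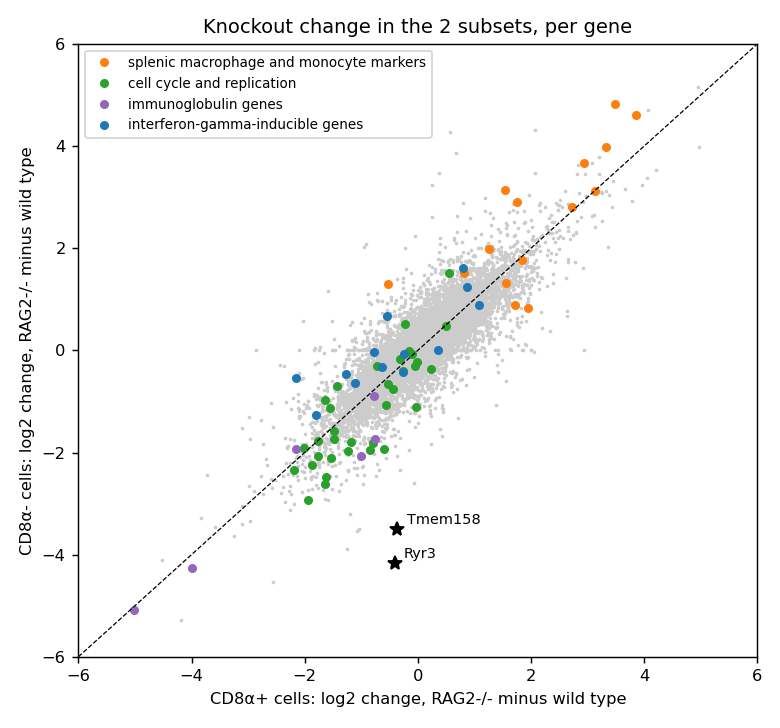
Log2 change (RAG2-/- minus wild type) in CD8α- cells (y axis) against CD8α+ cells (x axis), 1 grey point per gene, with values below log2 5 set to 5. Coloured points are members of 4 lists, stars mark Ryr3 and Tmem158, and the dashed line marks equal change. Macrophage genes lie to the upper right, immunoglobulin and cell cycle genes mostly to the lower left, and Ryr3 far below the line.

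Genes next to the targeted locus were looked at because a knockout made in another strain can carry a stretch of that strain's chromosome. Rag2 lies on chromosome 2 at 101624712 to 101632528 (GRCm38.p6). Within 5 Mb of it 3 of 24 tested genes were called (12.5%), against 36.0% of 547 genes more than 20 Mb away on the same chromosome. The 3 were Commd9, Pdhx and Ldlrad3, with changes of -1.02, -1.04 and 1.03. Traf6 and Iftap, the tested genes nearest to Rag2, were not called.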

How the data were processed

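Each of 4 groups has 2 arrays. The values are those deposited by the authors, on a log2 scale, 1 for each probe set and array, made with GCRMA and affy for wild type and with GCRMA alone for knockout arrays, per the submitters' processing notes. Tool versions and the sets of arrays normalized jointly: not given in the sources used here. Scanner files were not used. For arrays no depth applies: the number of arrays limits the precision.

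Of 45101 probe sets, 34945 had 1 gene name in GEO's platform annotation, 932 several, 9160 none, and 64 were array controls. Symbols of 34741 were checked by gene ID against RefSeq's GRCm38.p6 table, and none needed an update. Values below 5 were set to 5. All 8 arrays entered 1 limma fit with a mean per group (limma 3.58.1, R 4.3.3, plain eBayes, residual df 4; 2-sided p adjusted by Benjamini-Hochberg over 14082 probe sets). A gene was called by its brightest probe set over the 4 CD8α+ arrays at an adjusted p under 0.05. Fold bounds set a group wholly below 5 to 5. The fit was tested on simulated data. Changes are given ± SE of the fit, and levels per array.

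Genes were named by a rule: the 15 largest rises and 15 largest falls among called genes with several probe sets that all changed in 1 direction and arrays that did not overlap, the 10 largest each way among called genes with 1 probe set, genes called for the difference between subsets, members of 41 gene lists, Rag1, Rag2, Cd8a and Cd4, and genes next to Rag2. The genes shown as checks of the arrays, Ifi44l's and Slfn5's grouping, and single genes printed for disagreement were chosen after their values were seen. Not every gene that met the rule is described above. Those left out include stable genes such as Ipo13 and others, such as Gzma and Ctse, that were not stable. The members, lists and rules were chosen with earlier results of these data known. Alternatives were other floors, filters, normalizations, ways to join probe sets, eBayes settings, weighted arrays, a replicate block, and leaving out each array. Over the kept probe sets, same-numbered arrays of different groups did not deviate together (r of deviations from -0.186 to 0.104). Both knockout replicate 2 arrays nevertheless lacked Xist. Whether equal numbers mark the same animals is not stated in the labels and was not tested. Figures used matplotlib 3.10.9.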

Additional observations from a re-analysis of the deposited data

Results flagged for a closer look

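The knockout change differed between the subsets for 2 genes. Subtracting the CD8α- change from the CD8α+ change gave 3.76 on the log2 scale for Ryr3 and 3.14 for Tmem158. Tmem158, a membrane protein gene, was at 5.47 and 5.24 in wild type CD8α+ cells and below 5 in the knockout, and with a change of -3.50 in CD8α- cells, to below 5 on both knockout arrays. In both genes the CD8α+ level in wild type lay less than 0.5 above the floor of 5, so a larger fall could not have been read there. The second probe set of Ryr3 changed by 0.02 in CD8α+ cells. No difference between subsets was called for any gene when values were used without a floor, or when any single array was left out.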

How the results depend on the processing

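With a floor at 7 in place of 5, 1719 probe sets were higher and 1263 lower, 773 genes were lower, and the change differed between subsets for 68 genes. Without a filter on dim probe sets the counts were 855 and 791 probe sets and 574 and 423 genes, with 17 for the subsets. Requiring a log2 change of at least 1 as well left 1527 and 1371 probe sets and 985 and 710 genes. Without both knockout arrays that lack Xist, added after seeing the data, 1579 and 1521 probe sets and 1019 genes higher were called, and 0 for the subsets. With at least 2 probe sets called in 1 direction and none in the other, also added, 209 and 261 genes remained. Averaging the probe sets of each gene gave 1642 higher and 1249 lower, and fitting 1 probe set a gene gave 1331 lower. For the subsets the count was 0 with values as deposited, with an offset of 16, with a filter at 7 and with the replicate block, 1 with the spread of the deposited values (added), 4 with centred arrays, 6 with either way of joining probe sets, and 7 with limma-trend. The cause of these shifts was not tested, other than fewer rows where probe sets were joined.

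The replicate block gave 1615 and 1159 genes and left 138 of the 151 called genes named here called. Same-numbered arrays did not deviate together over the kept probe sets. Leaving out 1 of the 8 arrays gave 1309 to 2695 probe sets higher, 1299 to 2382 lower, 868 to 1821 genes higher, 690 to 1298 lower, and 0 for the subsets. Of the 151 genes, no change was reversed under any setting that gave a value, 85 lost their call without the filter, 54 with a floor at 7, and 57 without wild type replicate 1. Centring or quantile normalization cost 8 and 7. Signal near the floor limits the size of falls.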
